A study of Mus musculus with 2 samples.

Results

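The genes described here build ribosomes: they encode RNA polymerase I and its factors, the enzymes that process and modify ribosomal RNA, and the proteins that assemble both ribosomal subunits in the nucleolus. They are a list of 55 genes taken by symbol, each represented by the probe set with the highest mean among those annotated with that gene alone. This list and those set beside it were chosen with earlier results of these data known. Of the 55 genes, 54 were measured, out of 19938 genes in the table, and *Noc2l*, a nucleolar assembly factor, had no such probe set and was not analysed here. All 54 exceeded background in both arrays, so none was lost to a filter on low values.

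The RNA came from CD3+ CD4+ T cells that were sorted from the pancreatic lymph nodes (PLN) of BDC mice, a NOD line whose transgenic T cell receptor recognizes a β cell antigen (the labels name the line BDC2.4, the study BDC2.5). The mice were 8 weeks old and had received either anti-CD4 (clone YTS177), a nondepleting antibody called ND αCD4, or an isotype control Ab (clone 2A3). Cells were taken after 48 hours in both groups. The labels give a dose of 1 mg, whereas the methods of the study give a range that is higher for the isotype control Ab. Per the methods, PLN of 3 BDC mice were pooled for the sort, and each group has 1 array. There is thus no replicate check of any difference and no test, the number of arrays limits the precision, and every log2 ratio (ND αCD4 minus isotype control Ab) describes these 2 arrays.

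Ribosome production begins when RNA polymerase I transcribes the ribosomal DNA repeats into a long precursor RNA. Small nucleolar RNPs (snoRNPs) guide the methylation and pseudouridylation of this precursor, and large complexes cut and fold it into the small and the large subunit. T cells that have been activated through their receptor enlarge their nucleoli and make many more ribosomes before they divide, and the transcription factor Myc is a known driver of these genes.

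The list was lower after ND αCD4 almost throughout, by small amounts. Of the 54 genes, 52 had a log2 ratio below 0, against 52.7% of the 13222 genes detected above background. The median log2 ratio was -0.31, equal to a 1.24-fold lower signal, with the middle of the list between -0.39 and -0.19, while the median of all detected genes was -0.01. A signal at least 20% lower was seen for 27 of the 54 genes and for 3.89% of all detected genes, and none of the 54 was at least 25% higher (the same size on the log2 scale), against 1.51%. At the larger limit of 1.5-fold, 1 gene of the list was lower, where the share of all detected genes was 1.01%, and none was higher, where that share was 0.212%. The single differences were thus small and nearly all of one direction. In RNA of a whole cell pool, fewer cells that express these genes and less RNA per cell cannot be told apart.

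**Figure D1:**
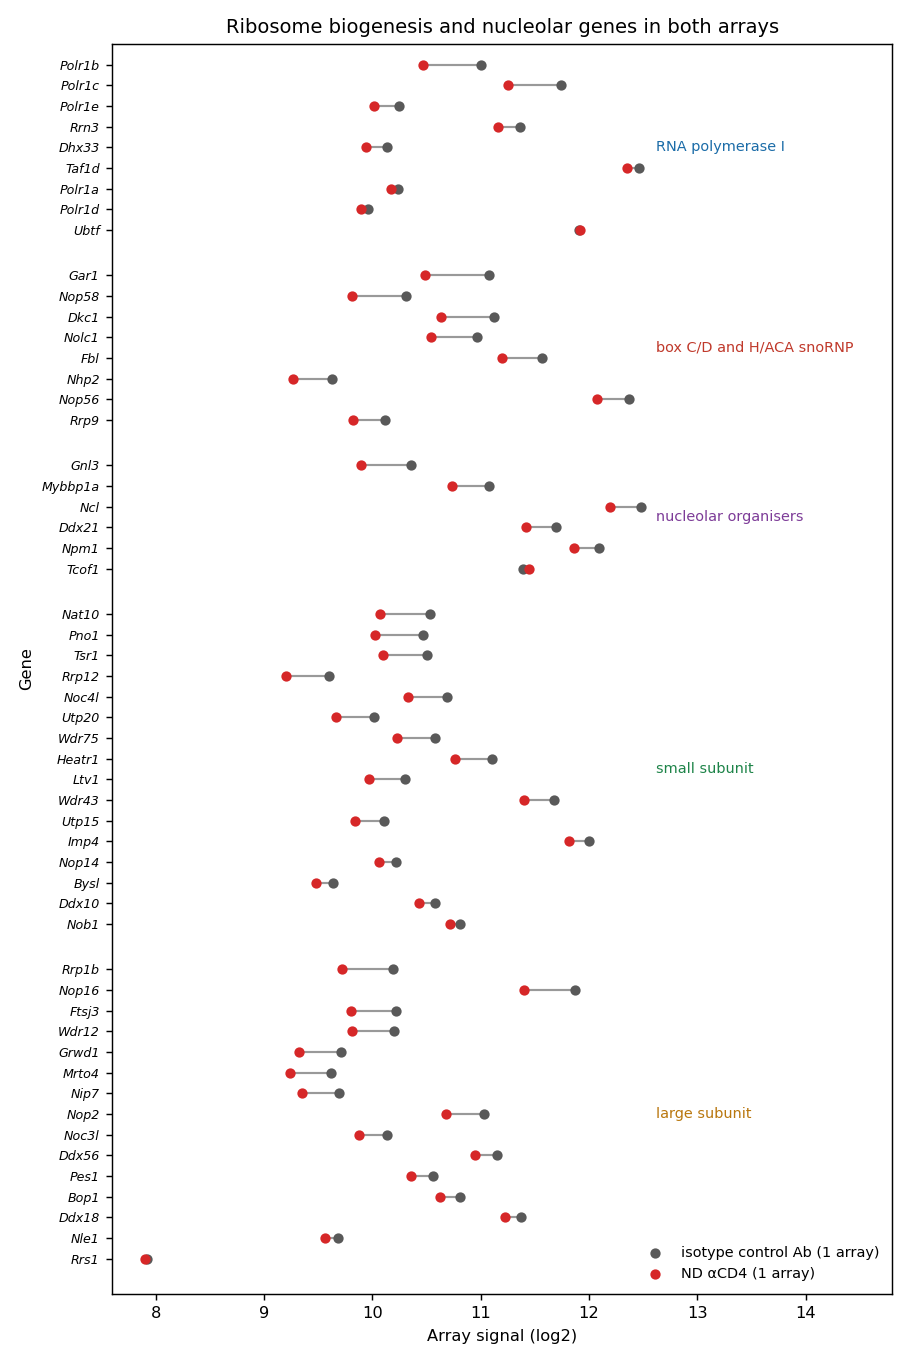
Array signal (log2, horizontal axis) of the 54 measured genes in the isotype control Ab array (gray) and in the ND αCD4 array (red), 1 array each, grouped by role and ordered by log2 ratio within a group. The red point lies to the left for 52 genes, *Ubtf* and *Tcof1* are the exceptions, and signals of different genes cannot be compared because each has its own probes.

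The genes for proteins of the snoRNPs formed the group with the lowest median, and all 8 were lower. *Gar1*, a core protein of the H/ACA snoRNPs that carry out pseudouridylation, showed log2 signals of 11.08 with the isotype control Ab and 10.49 with ND αCD4, which is 1.51-fold lower. Its log2 ratio of -0.59 was the lowest among the 54 genes, and 0.998% of all detected genes had a lower one. *Dkc1*, the pseudouridine synthase of the same particle, went from 11.12 to 10.63 (log2 ratio -0.49), and *Nhp2*, another of its core proteins, from 9.63 to 9.27 (-0.36).

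Genes for proteins of the box C/D snoRNPs, which methylate ribose, showed the same direction. *Nop58*, one of their scaffold proteins, went from 10.31 to 9.82 (log2 ratio -0.50), and its partner *Nop56* from 12.36 to 12.07 (-0.29). *Fbl*, the methyltransferase fibrillarin, went from 11.56 to 11.19 (-0.37). Genes for proteins of both classes of particle were therefore lower, with log2 ratios that overlapped. The arrays measure RNA, and neither proteins nor particles were measured. *Nolc1*, which binds and chaperones snoRNPs, had a log2 ratio of -0.43, and *Rrp9*, a protein of the U3 snoRNP, of -0.29. Over these 8 genes the median was -0.40, and 6 were at least 20% lower, against 3.89% of all detected genes.

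Among RNA polymerase I and its factors, log2 ratios ran from -0.53 to 0.01. *Polr1b*, which encodes the second largest subunit, went from 10.998 with the isotype control Ab to 10.47 with ND αCD4, 1.44-fold lower. *Polr1a*, the largest subunit and its partner in the catalytic core, went from 10.24 to 10.17, a log2 ratio of -0.07. The 2 subunits that form the active site together thus had unlike log2 ratios. *Polr1c* and *Polr1d*, both shared with RNA polymerase III, also differed from each other, with *Polr1c* going from 11.74 to 11.25 (-0.49) and *Polr1d* from 9.96 to 9.90 (-0.06). *Polr1e*, a subunit found in RNA polymerase I, was lower by 0.23 on the log2 scale (log2 ratio -0.23).

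The factors that bring RNA polymerase I to the ribosomal DNA were all closer to 0 than *Polr1b* and *Polr1c*, though not closer than *Polr1a* and *Polr1d* except for *Ubtf*. *Rrn3*, which joins the polymerase to its promoter and responds to growth signals, went from 11.36 to 11.16 (-0.20). *Taf1d*, a subunit of the promoter selectivity factor, had a log2 ratio of -0.11 and *Dhx33*, a helicase linked to ribosomal DNA transcription, of -0.19. *Ubtf*, the architectural protein that keeps the ribosomal DNA open, was at 11.90 with the isotype control Ab and 11.91 with ND αCD4, a log2 ratio of 0.01. The group of 9 had a median of -0.19, with 2 genes at least 20% lower, against 3.89% of all detected genes.

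Genes for abundant nucleolar proteins and organisers were also lower with 1 exception. *Ncl*, nucleolin, went from 12.48 to 12.19 (log2 ratio -0.29), and *Npm1*, nucleophosmin, from 12.09 to 11.86 (-0.23). *Gnl3*, the GTPase nucleostemin, had the lowest log2 ratio of the 6, with 10.36 and 9.90 (-0.46). The exception was *Tcof1*, treacle, a scaffold that links ribosomal DNA transcription to the processing of its product, at 11.39 and 11.45 (0.06). *Mybbp1a*, a Myb-binding nucleolar protein, had a log2 ratio of -0.34 and the helicase *Ddx21* of -0.28. *Ubtf* and *Tcof1* were the 2 genes of the list above 0, as deposited and under each of the 3 other scalings between the arrays.

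All 16 genes of the small subunit were lower, against 52.7% of all detected genes, with a median of -0.33. At least 20% lower were 9, against 3.89%. *Nat10*, which acetylates the small-subunit rRNA, went from 10.53 to 10.07 (log2 ratio -0.46), and *Pno1*, which accompanies late precursors of the subunit, from 10.47 to 10.02 (-0.45). *Nob1*, the nuclease that makes the last cut in the small-subunit rRNA and a binding partner of *Pno1*, was at 10.81 and 10.71 (-0.10), the smallest difference of the 16. The partners *Pno1* and *Nob1* thus lay near opposite ends of the range of this group. *Tsr1* (-0.40), *Ltv1* (-0.33) and *Bysl* (-0.16) encode other factors of late precursors. Of the components of the early small-subunit processome, *Noc4l* (-0.36), *Wdr75* (-0.35), *Utp20* (-0.35), *Heatr1* (-0.34), *Wdr43* (-0.28) and *Utp15* (-0.26) lay close together, and *Imp4* (-0.18), *Nop14* (-0.17) and the helicase *Ddx10* (-0.15) were nearer to 0. *Rrp12*, which takes part in the maturation and export of precursors, had a log2 ratio of -0.39.

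All 15 measured genes of the large subunit had a log2 ratio below 0, against 52.7% of all detected genes, with a median of -0.34. At least 20% lower were 8, against 3.89%, counting *Wdr12*, whose value depended on the probe set. With the mean of probe sets, the median of this group was -0.26. *Rrp1b*, a nucleolar protein of early large-subunit precursors, went from 10.19 to 9.72 (-0.47), *Nop16* from 11.87 to 11.40 (-0.46) and *Ftsj3* from 10.22 to 9.80 (-0.42). *Nop2*, an rRNA methyltransferase known as a proliferation antigen, went from 11.03 to 10.68 (-0.34). *Pes1*, *Bop1* and *Wdr12* encode the 3 proteins of the PeBoW complex, which is needed to process the large-subunit rRNA. *Pes1* (-0.20) and *Bop1* (-0.18) were alike, while *Wdr12* depended on the probe set, as given below. *Grwd1* (-0.38), *Mrto4* (-0.37), *Nip7* (-0.35), *Noc3l* (-0.26), *Ddx56* (-0.20), *Ddx18* (-0.15) and *Nle1* (-0.12) covered the rest of the range. *Rrs1* was at 7.92 and 7.90, just above the background levels of 7.64 and 7.56, and its log2 ratio of -0.01 therefore carries little information.

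Several probe sets were available for 6 of the 54 genes. For *Fbl* the log2 ratio was -0.37 and -0.31, for *Mrto4* -0.37 and -0.30, and for *Polr1d* -0.06 and -0.11. Each pair lay within the spread between probe sets of a gene (SD 0.0929 over 550 genes with 2 detected probe sets). The first value, used above, is from the brighter probe set, whose identifier lies among those of genes from the same chromosome. The second probe set does not, with 1, 0 and 0 of 20 neighbours there. These pairs are therefore not 2 readings known to come from the same gene. *Wdr12* was different. Its brighter probe set, used above by rule, went from 10.20 to 9.81 (log2 ratio -0.39), but its identifier lies among those of genes from another chromosome, with 0 of 20 neighbours on the chromosome of *Wdr12*. The probe set whose neighbours do lie there (19 of 20) was at 9.06 with the isotype control Ab and 9.05 with ND αCD4, a log2 ratio of -0.01. Whether *Wdr12* itself was lower can therefore not be read from this table. *Ddx18* had the same arrangement as *Wdr12*, with values of -0.15 and -0.09. *Taf1d* had 9 probe sets with log2 ratios from -0.12 to 0.07, but these hold only 6 distinct pairs of values, and 4 of the 9 lie elsewhere. With the probe sets at the locus of each gene, the median of the list was -0.29, and 52 genes were still below 0.

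**Figure D2:**
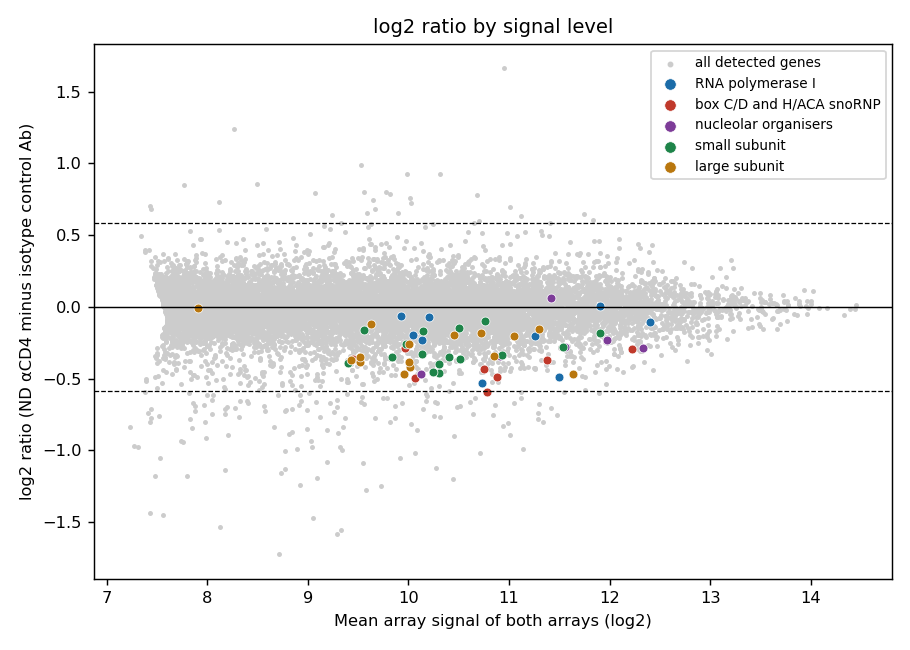
Log2 ratio (vertical axis) against the mean array signal of both arrays (log2, horizontal axis) for all 13222 detected genes (light gray) and the 54 genes of the list, coloured by role, with 0 as a solid line and the 1.5-fold limit as dashed lines. The coloured points lie between -0.59 and 0.06 at nearly all signal levels of the list.

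The difference did not follow the signal level within the list. The Spearman correlation between mean signal and log2 ratio was 0.11 and the Pearson correlation 0.07 over the 54 genes, which share both arrays and are not independent replicates. Of the 54 genes, 53 had a signal of at least 9 in both arrays on the log2 scale. Among these, 27 were at least 20% lower and 51 had a log2 ratio below 0, against 3.66% and 53.3% of the 7870 genes with that signal. None of the 53 was at least 25% higher, against 1.58%, 1 was at least 1.5-fold lower, against 0.661%, and none 1.5-fold higher, against 0.254%.

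Further factors of ribosome biogenesis, from a wider list of 121 genes outside the 55, were also mostly below 0 but by less. Both lists were chosen with earlier results of these data known, and how that choice bears on the gap between them was not tested. Of 118 measured factors of the wider list, 102 (86.4%) had a log2 ratio below 0, against 52.7% of all detected genes, and the median was -0.14. At least 20% lower were 10 (8.47%), against 3.89%, and none was at least 25% higher, against 1.51%. The share at least 20% lower was 4.88% of the 41 small-subunit genes and 5% of the 40 genes of the large subunit and other steps. *Rpp25*, a protein of RNase P and RNase MRP, had the lowest log2 ratio, with 8.19 for the isotype control Ab and 7.52 for ND αCD4. As 7.52 does not exceed background, the size of this difference has only a bound. *Ruvbl1* went from 10.32 to 9.79 (-0.53), *Znhit6* from 9.65 to 9.13 (-0.52) and *Ruvbl2* from 10.41 to 10.02 (-0.39). These 3 genes encode proteins that assemble box C/D snoRNPs, the particles of *Nop58* and *Fbl*, and they were the 3 of 9 measured snoRNP assembly genes that were at least 20% lower. *Nifk* (-0.44), which binds the proliferation antigen Ki67 and acts on the large subunit, *Pop1* (-0.44), a further RNase MRP protein, *Utp4* (-0.39), a processome component, and *Mphosph6* (-0.38), which associates with the RNA exosome, complete the 8 lowest. The 4 highest were *Nop53* at 0.16, *Rpp21* at 0.14, *Riok3* at 0.10 and *Pop7* at 0.08. Of the 7 further genes of RNA polymerase I and its factors, 3 were below 0, the median was 0.05 and the range was -0.24 to 0.08.

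**Figure D3:**
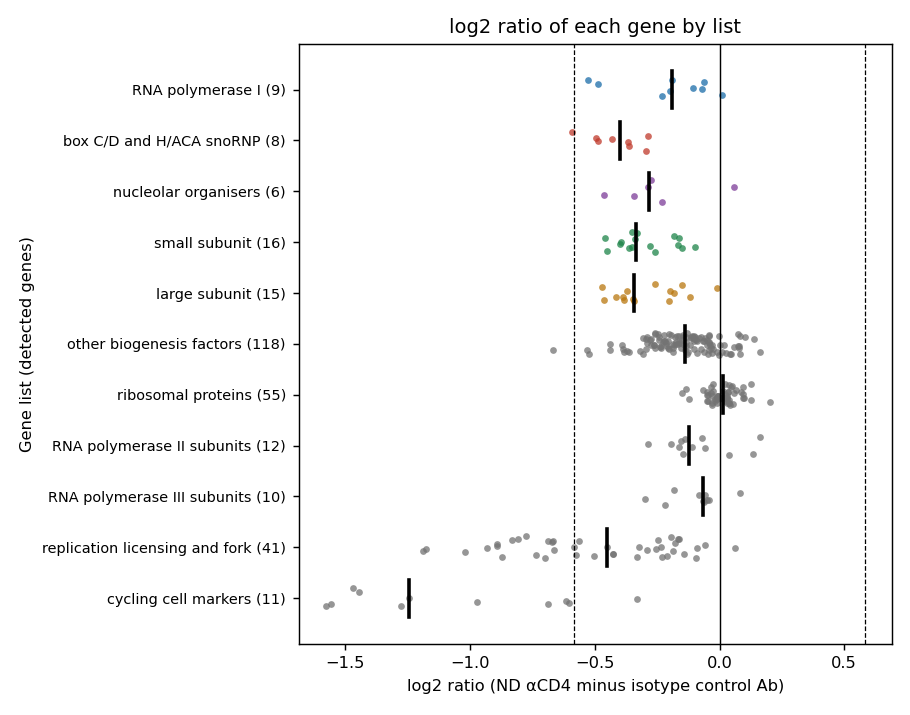
Log2 ratio (ND αCD4 minus isotype control Ab) for the detected genes of each list, where a point is a gene, brackets give the number of genes, and a short vertical bar marks the median. The solid line is at 0 and the dashed lines are at the 1.5-fold limit. Medians run from -0.40 for the snoRNP proteins to -0.19 for RNA polymerase I, against 0.01 for ribosomal proteins and -1.24 for cycling cell markers, and the vertical position within a list has no meaning.

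The measured genes that encode proteins of the finished ribosome had nearly equal signals in both arrays. Of the 79 genes listed for cytosolic ribosomal proteins, 55 were measured, and the others had no usable probe set. Many of the 55 have several probe sets, up to 14, and the locus of the brightest was not checked. Of the 55, 24 had a log2 ratio below 0, against 52.7% of all detected genes. None was at least 20% lower, against 3.89%, or 25% higher, against 1.51%. Over the 55 genes the median was 0.01, with a range from -0.15 to 0.20. Most of them had signals where differences were small: of 158 detected genes with a mean signal of 13 or more, 0.633% were at least 20% lower. Those 158 include the ribosomal protein genes with such a signal, so they are not a separate comparison. The 12 ribosomal protein genes whose mean signal did not exceed that of the highest gene of the list, 12.40, had a median of 0.04. *Rpl14* had the largest log2 ratio in size, 0.20, followed by *Rpl22* at -0.15 and *Rplp2* at -0.13. The difference between the assembly genes and the ribosomal protein genes was not tested, as 1 array per group gives no test.

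The other RNA polymerases were set beside the group of 9 for RNA polymerase I, whose median was -0.19. The sets are unlike, since that group also holds *Rrn3*, *Taf1d*, *Dhx33* and *Ubtf*, which are not subunits of the enzyme. It also leaves out the 7 further genes of RNA polymerase I and its factors, whose median was 0.05. The 12 subunit genes of RNA polymerase II, some of which all 3 enzymes share, had a median of -0.12. The 10 measured genes listed for RNA polymerase III, without the shared *Polr1c* and *Polr1d*, had a median of -0.07. No gene of these lists was at least 20% lower, against 3.89% of all detected genes, whereas the shared *Polr1c* was. *Myc*, the transcription factor named above, went from 11.99 with the isotype control Ab to 11.68 with ND αCD4, a log2 ratio of -0.31. The other 10 detected genes of the Myc and Max network lay between -0.09 and 0.20, with *Mxi1*, a Myc antagonist, at 0.20 and *Mnt*, another one, at 0.13.

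Markers of cycling cells were lower by much more than the list in the same arrays. Of 11 measured markers of cycling cells, 10 were at least 1.5-fold lower, against 1.01% of all detected genes, with a median log2 ratio of -1.24. *Mki67* went from 10.22 to 8.94. *Bub1* and *Birc5* did not exceed background after ND αCD4, so the size of their differences has only a bound. Of 41 detected genes of replication licensing and the replication fork, 40 were below 0 and 16 at least 1.5-fold lower. Their median was -0.45, against -0.31 for the list. At least 20% lower were 24 (58.5%), against 50% of the list and 3.89% of all detected genes. The lowest were *Pole* at -1.19, *Orc1* at -1.18 (not above background after ND αCD4) and *Rfc4* at -1.02. The part of the cycling cells in the difference of the ribosome biogenesis genes was not tested. The genes that mark T cells were present at similar signals in both arrays. *Cd3e* was at 13.76 and 13.78, *Cd4* at 13.38 and 13.48, and the 10 measured T cell markers had log2 ratios from -0.14 to 0.13. Both CD8 markers were above background despite the CD4+ gate and were higher after ND αCD4, *Cd8a* with 9.67 and 10.39 and *Cd8b1* with 11.38 and 11.83. Of 5 natural killer cell markers, 2 exceeded background in at least 1 array, with *Klrd1* at 7.34 and 8.19 and *Nkg7* at 11.25 and 11.34. *Klrd1* exceeded it only after ND αCD4, so the size of its difference has only a bound. *Ncr1*, *Klrk1* and *Klrb1c* exceeded background in neither array. All 5 measured B cell markers exceeded background in at least 1 array, with log2 ratios from 0.01 to 0.29. For macrophages or monocytes 3 of 6 did, for plasma cells 3 of 4, for dendritic cells 2 of 5, for neutrophils 1 of 4, for stroma or endothelium 3 of 4 measured and for exocrine pancreas 3 of 5, while for red blood cells 1 of 5 was measured and exceeded it. None of the markers of these 7 cell types was at least 20% lower or 25% higher. The part of these cells in the result was not tested.

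The promoter sequences show what some of these genes share. RefSeq windows (GRCm38.p6) from 250 bases before the start site of transcription to 50 bases after it were matched by symbol for 48 of the 54 genes, 3 of which have several windows. The E-box CACGTG, the motif of Myc with Max and of other factors, which reads the same on both strands, occurred in 13 of the 48 (27.1%). It occurred in 11.3% of 10511 detected genes with a window, in 8.09% of all genes, and in 7.15% of the 32851 windows. As to the place of the match, of 14 matches in the list, 9 (64.3%) lay within the first transcribed bases after the start site, against 13.4% of the 1445 matches in detected genes. These are descriptions of sequence, with no test, and a match is not a binding site.

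The windows below show some of these matches, those of the E-box genes with the lowest log2 ratios. Each has 30 bases on the strand of the gene, 5′ to 3′, with the E-box in capitals, and does not reach the start site. The first 5 lie after the start site, and *Nop2* carries its match before it.
Pno1: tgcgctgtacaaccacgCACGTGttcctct
Tsr1: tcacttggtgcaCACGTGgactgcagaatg
Grwd1: aagggccggagtcgCACGTGtgaaaccgga
Utp20: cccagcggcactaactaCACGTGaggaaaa
Mybbp1a: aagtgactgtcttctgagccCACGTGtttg
Nop2: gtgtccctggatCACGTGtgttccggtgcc
The first base of the E-box is base 38 after the start site in *Pno1* (chr11:17211540-17211569, minus strand), base 25 in *Tsr1* (chr11:74898092-74898121, plus strand) and base 35 in *Grwd1* (chr7:45830740-45830769, minus strand). It is base 38 in *Utp20* (chr10:88826765-88826794, minus strand) and base 41 in *Mybbp1a* (chr11:72441347-72441376, plus strand). In *Nop2* (chr6:125131811-125131840, plus strand) it lies at position -60. Of the 13 genes with an E-box, *Pno1*, with the lowest log2 ratio (-0.45), and *Nle1*, with the highest (-0.12), both have it after the start site.

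**Figure D4:**
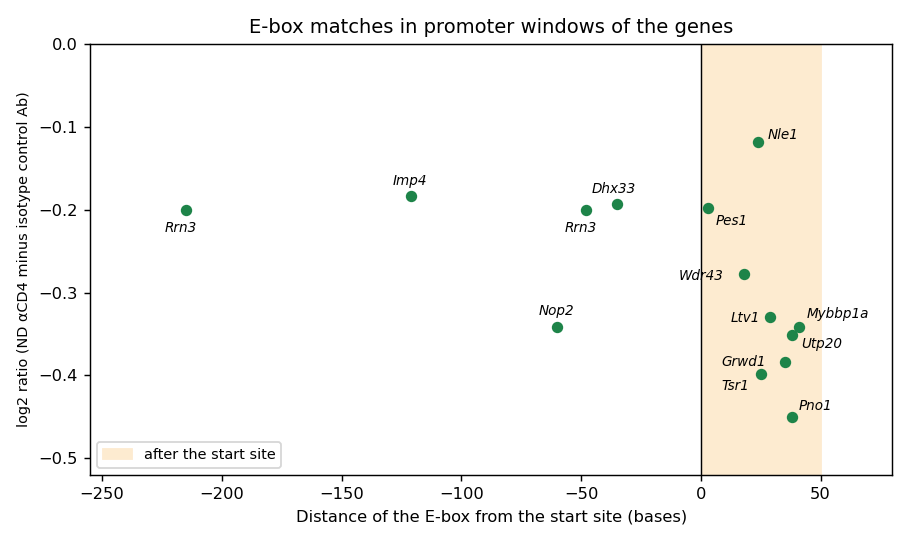
Distance of each E-box match from the start site of transcription (bases, horizontal axis; positive after it, shaded) against the log2 ratio of its gene (vertical axis), for 14 matches in 13 genes of the list. Of these, 9 lie between 3 and 41 bases after the start site, and the log2 ratios run from -0.45 for *Pno1* to -0.12 for *Nle1*.

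Within the list, genes with and without an E-box had nearly the same log2 ratio. The median was -0.33 for the 13 genes with the motif and -0.34 for the 35 without it. None of the 8 genes with the lowest log2 ratios, *Gar1*, *Polr1b*, *Nop58*, *Polr1c*, *Dkc1*, *Rrp1b*, *Nop16* and *Gnl3*, had these letters in its window, which says only that they are not in this window. The motif was also in 15 of 96 other biogenesis factors with a window (15.6%) and in 5 of 44 ribosomal protein genes (11.4%). In the former the median was -0.24 with the motif and -0.13 without it.

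The ETS motif CCGGAAGT, searched on both strands, was in 10 of the 48 genes (20.8%), against 8.32% of detected genes and 3.89% of all windows. Its share was 27.1% in the other biogenesis factors (26 of 96) and 15.9% in ribosomal protein genes (7 of 44). Within the list it occurs together with an E-box in *Ltv1*, *Tsr1*, *Grwd1* and *Rrn3*. It is shown for *Gar1* and *Polr1c*, the 2 of the 8 lowest genes that carry it, and for *Ltv1*, which has it at 2 places (the one farther from the start site is shown) together with an E-box, with the motif or its reverse complement in capitals.
Gar1: cgcgccgccacACTTCCGGaaacgtcgcgt
Polr1c: ccacttgacgtCCGGAAGTgaaggacgtgg
Ltv1: agccccacctcCCGGAAGTccccgggaagg
The windows lie at chr3:129831422-129831451 for *Gar1*, chr17:46248069-46248098 for *Polr1c* and chr10:13193217-13193246 for *Ltv1*, all on the minus strand and before the start site. The median log2 ratio was -0.35 for the 10 genes with the ETS motif and -0.29 for the 38 without it, while in the other biogenesis factors it was -0.11 with the motif and -0.15 without it. The GC box GGGCGG was in 72.9% of the 48 genes and 65.2% of detected genes, the TATA box TATAAA in 4.17% and 9.04%, the YY1 motif AAGATGGCG in 6.25% and 3.23%, and the NRF1 motif in 2.08% and 2.20%.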

How the data were processed

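Each of the 2 arrays has a column of log2 values, 1 per probe set, as deposited by the authors. Affymetrix Expression Console is the program in the submitters' processing notes. The arrays are Affymetrix mouse gene ST arrays, and the probe set identifiers belong to an earlier version than the methods of the study name, so the annotation of that earlier version was used. Background correction and normalization are not given in the sources that were used. The values themselves, with a lowest of 2.52, a highest of 14.7 and a median of 8.15 in each array, were the basis for taking them as log2.

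Probe sets with 1 gene symbol in the platform annotation were used (21789 of 35557), the brightest per gene. Background was the 95th percentile of 1210 probe sets for olfactory and vomeronasal receptors, and genes above it in 1 array or both counted as detected. Limits of size were 1.5-fold, and 20% lower or 25% higher. No test was run, since each group has 1 array. Functions were checked on simulated data. Every gene of the list may be named, as may the 8 lowest and 4 highest of the wider list of biogenesis factors, up to 3 genes per comparison list, *Myc* and the defining markers. The rule for printing E-box promoters, limited to the 8 lowest genes, selected none, so the promoter windows printed were chosen after their values were seen, as were the subgroups of the wider list and the lists of RNA polymerase II and III subunits. Older symbols were used for *Polr1f*, *Polr1g* and *Polr1h*. The members and lists were chosen with earlier results of these data known. Tables were computed in Python 3.11.15 with pandas 2.3.3 and numpy 2.4.6, lowess came from statsmodels 0.14.6, and figures were drawn with matplotlib 3.10.9.

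Alternatives tried were 3 scalings (median centring, quantile normalization, and lowess with fraction 0.3 and 3 iterations), a floor at background, averaged probe sets, no detection filter or one in both arrays, a 2-fold limit, and omission of each role group. Protein features that had been planned were not computed.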

Additional observations from a re-analysis of the deposited data

How the results depend on the processing

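The count of 52 of 54 genes below 0 held under each of the 3 other scalings, with a floor at background, with averaged probe sets, without the detection filter and with detection in both arrays. The 1 gene at least 1.5-fold lower, *Gar1*, fell just short of that limit when centred on the median (log2 ratio -0.58), with lowess correction (-0.57) and with quantile normalization (-0.58), which leaves 0 genes, as do a 2-fold limit and leaving out the snoRNP group. The median of the list was -0.30 with quantile normalization, -0.29 with the mean of probe sets and -0.33 for genes with a signal of at least 9 in both arrays. Without 1 role group it was -0.34 (RNA polymerase I), -0.28 (snoRNP), -0.33 (nucleolar organisers), -0.29 (small subunit) or -0.29 (large subunit), and with the probe sets at the locus of each gene -0.29. The last setting and the signal limit of 9 were chosen after seeing the data. The median of the wider list of biogenesis factors was -0.13 under each other scaling. Over all detected genes, a 2-fold limit left 25 lower and 2 higher. *Wdr12* was the 1 gene of the list whose log2 ratio moved by more than the spread between probe sets, to -0.20 with the mean of probe sets. Its 2 probe sets differ, and the cause was not tested. With the mean of probe sets, the median of the large-subunit genes moved from -0.34 to -0.26. The alternative planned for linear values was not run, since the values are on a log scale. No paired analysis was possible because each group has 1 array. Neither the spread between mice nor that between arrays is known.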
